A study of Mus musculus with 10 samples.

Results

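The genes described here are 10 serpins of the mouse liver: Serpina11, Serpinb1a, Serpina1a, Serpina1b, Serpina1c, Serpina1d, Serpina1e, Serpina3k, Serpina3n and Serpina6. They are 10 of 70 serpin rows, found by symbol with Agt included, in a table of 55401 genes. Serpina11 and Serpinb1a were chosen because they differed between the genotypes compared here. Their values are therefore given as a description with no test, and the test is read for the other 8, which were chosen by family.

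RNA from the livers of 10 mice was sequenced as poly(A)-selected libraries, 5 from mice labelled NIKflox and 5 from mice labelled NIKhKO. Every mouse had received ethanol at 5% in a Lieber-DeCarli liquid diet over 4 weeks, and no group went without it. NIK is NF-kB inducing kinase, the product of Map3k14, and the study asks about hepatic NIK. The design text writes the control genotype as NIKF/F, a floxed allele on both chromosomes. Neither the Cre driver, the part of the gene removed, the age nor the sex of the mice is given in the sources used here, and hKO is not spelled out. Whether the livers of 1 genotype came from different litters or cages is not stated, and the p-values describe the spread between these 10 libraries and nothing wider.

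Serpins share a fold in which an exposed stretch near the carboxyl end, the reactive centre loop, is offered as bait to a protease. Cleavage of the loop inserts it into the body of the serpin and traps the protease in a covalent complex. Hepatocytes make most of the serpins that circulate in blood, and alpha-1-antitrypsin, the product of the Serpina1 genes, is among the most abundant proteins that they secrete. Some serpins, such as the hormone carrier encoded by Serpina6, inhibit no protease.

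Of these genes, 9 lie in the Serpina cluster of chromosome 12 and Serpinb1a lies on chromosome 13, in the coordinates of the deposited table, read as GRCm38. The 5 Serpina1 genes lie on the minus strand: Serpina1b at chr12:103728156-103740515, Serpina1d at chr12:103763594-103773592, Serpina1a at chr12:103853589-103863555, Serpina1c at chr12:103894926-103904887 and Serpina1e at chr12:103946931-103958975. Serpina6 (chr12:103646630-103657212) and Serpina11 (chr12:103980243-103989957) lie on the same strand, on either side of them. Serpina3k (chr12:104338486-104346144) and Serpina3n (chr12:104406729-104414329) lie on the plus strand, and Serpinb1a (chr13:32842092-32851185) lies on the minus strand.

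The 5 antitrypsin paralogs are near copies that differ more at the loop than over the coding sequence as a whole. Over 1239 coding bases, the 10 pairs among them were 96.3% to 98.5% identical. Over the 81 bases that run from the conserved hinge of the loop to the conserved end of the loop region they were 85.2% to 93.8% identical. These 81 bases, codons 363 to 389 of 413, lie in exon 5 of 5. They are shown because the loop is where paralogs can differ in the protease they meet, and capitals mark the 18 positions at which at least 1 of the 5 genes differs. They were read from GENCODE M21 transcripts on GRCm38, 5′ to 3′ in the sense of the gene, on the minus strand.
Serpina1a, chr12:103853750-103853830: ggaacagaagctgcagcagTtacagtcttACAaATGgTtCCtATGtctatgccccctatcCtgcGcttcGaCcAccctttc
Serpina1b, chr12:103728317-103728397: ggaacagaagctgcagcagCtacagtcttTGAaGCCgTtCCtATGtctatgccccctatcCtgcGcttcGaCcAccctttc
Serpina1c, chr12:103895087-103895167: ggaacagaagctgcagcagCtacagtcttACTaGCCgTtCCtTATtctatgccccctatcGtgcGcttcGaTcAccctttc
Serpina1d, chr12:103763755-103763835: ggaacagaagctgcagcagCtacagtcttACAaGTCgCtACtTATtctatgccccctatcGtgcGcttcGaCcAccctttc
Serpina1e, chr12:103947093-103947173: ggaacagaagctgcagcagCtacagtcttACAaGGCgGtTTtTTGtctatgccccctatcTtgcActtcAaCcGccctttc

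The same stretch from 4 other genes shows how far the family reaches from antitrypsin. Capitals here mark 12 bases, the codons of the conserved hinge, which were found in 9 of the 10 genes. Serpina6 had no such hinge and is printed without capitals. Serpina11, Serpinb1a and Serpina6 are on the minus strand and Serpina3k on the plus strand.
Serpina11, chr12:103980432-103980524: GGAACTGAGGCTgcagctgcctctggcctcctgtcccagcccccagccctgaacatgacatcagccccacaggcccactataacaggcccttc
Serpinb1a, chr13:32842884-32842970: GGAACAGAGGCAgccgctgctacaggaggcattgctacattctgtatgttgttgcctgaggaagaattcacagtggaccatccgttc
Serpina3k, chr12:104345269-104345352: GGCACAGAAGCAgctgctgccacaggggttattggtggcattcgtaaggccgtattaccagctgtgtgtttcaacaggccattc
Serpina6, chr12:103646915-103646995: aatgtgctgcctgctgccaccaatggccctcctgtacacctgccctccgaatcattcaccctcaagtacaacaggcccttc

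The 5 Serpina1 genes also share a stretch of 55 bases, letter for letter, just before their starts. It is shown because some pairs of the genes that carry it varied together from liver to liver, as the correlations further on give. Serpina1e carries it as well and did not pass with any of the others. After each genotype's mean was subtracted, its Pearson's r with Serpina1a, Serpina1b, Serpina1c and Serpina1d was 0.09, 0.29, 0.16 and 0.26. RefSeq promoters of GRCm38.p6 were matched by symbol for 7 of the 10 genes. Capitals mark GTTAAT, the letters of an HNF1 half-site. On either strand, the 250 bases before the start held these letters in 6.43% of 32851 RefSeq promoters, and the promoter windows of Serpina11 and Serpina3n did not hold them. The copy printed is that of Serpina1a, on the minus strand. The block ended 5 bases before the RefSeq start of Serpina1a, 10 before that of Serpina1b, 11 before that of Serpina1c, 0 before that of Serpina1d and 62 before that of Serpina1e. A match of letters is a description and shows no binding.
Serpina1a, chr12:103863625-103863679: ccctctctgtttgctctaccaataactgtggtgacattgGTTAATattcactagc

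This likeness bears on every level that follows. Of all stretches of 100 coding bases, 38.7% in Serpina1a and 38.2% in Serpina1c occurred in none of the other 4 paralogs, against 70.1% in Serpina1d, 72.0% in Serpina1b and 80.9% in Serpina1e. Reads from shared stretches can be assigned to the wrong paralog, so single levels of the 5 genes, of Serpina1a and Serpina1c above all, are uncertain, and their sum is given beside them. Serpina3k is 91.0% identical in coding sequence to its neighbour Serpina3m and 82.7% to Serpina3n. The model of Serpina3m also shares 60 exonic bases with the 2057 of Serpina3k.

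Libraries held 47161869 to 65052525 estimated counts, and the 10 serpins took 1.67% to 2.67% of them. Map3k14 was low in every liver, at 0.553, 0.510, 0.585, 0.899 and 0.483 FPKM in NIKflox 1 to 5 and 0.347, 0.361, 0.443, 0.389 and 0.373 in NIKhKO 1 to 5, where FPKM is the number of sequenced fragments relative to transcript length and library size. All 5 NIKhKO livers lay below all 5 NIKflox livers for it. Its mean was below the level set for testing, 0.5 FPKM. Hepatocyte markers (Alb, Apoa1, Ttr, Cps1, Fgb and Hnf4a) summed to 36417 to 50079 FPKM in NIKflox and 39515 to 46942 in NIKhKO livers. Heart muscle markers were above 1 FPKM in sum only in NIKflox 2 (6.89) and NIKflox 4 (28.8), and adipocyte markers stood at 22.5 in NIKflox 2. Values without both libraries are given where they differ by over 1.5 times.

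The levels of the 10 genes ran from antitrypsin, the highest, to Serpinb1a, the lowest, in both genotypes. In NIKflox livers the order by mean FPKM was Serpina1b (2379), Serpina1c (2199.8), Serpina1a (2003), Serpina1d (1537), Serpina3k (1379.6), Serpina6 (275), Serpina1e (275), Serpina3n (208), Serpina11 (49.8) and Serpinb1a (4.39). Neighbours in that order overlapped in range at every step down to Serpina3k. A clear gap followed it, since Serpina3k was 5.02 times Serpina6 with no overlap, and clear gaps also preceded Serpina11 and Serpinb1a. In NIKhKO livers Serpina3k stood in the sixth place, with a mean of 234 below the 483 of Serpina6, and its range then overlapped those of Serpina6 and Serpina3n. That place rests on NIKhKO 4: Serpina3k was above Serpina3n in 1 of 5 NIKhKO livers, and without NIKhKO 4 its mean was 103, below Serpina3n (225) and Serpina1e (175). Serpina1d stood in the second place there, above Serpina1c and Serpina1a, whose ranges it overlapped.

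**Figure D1:**
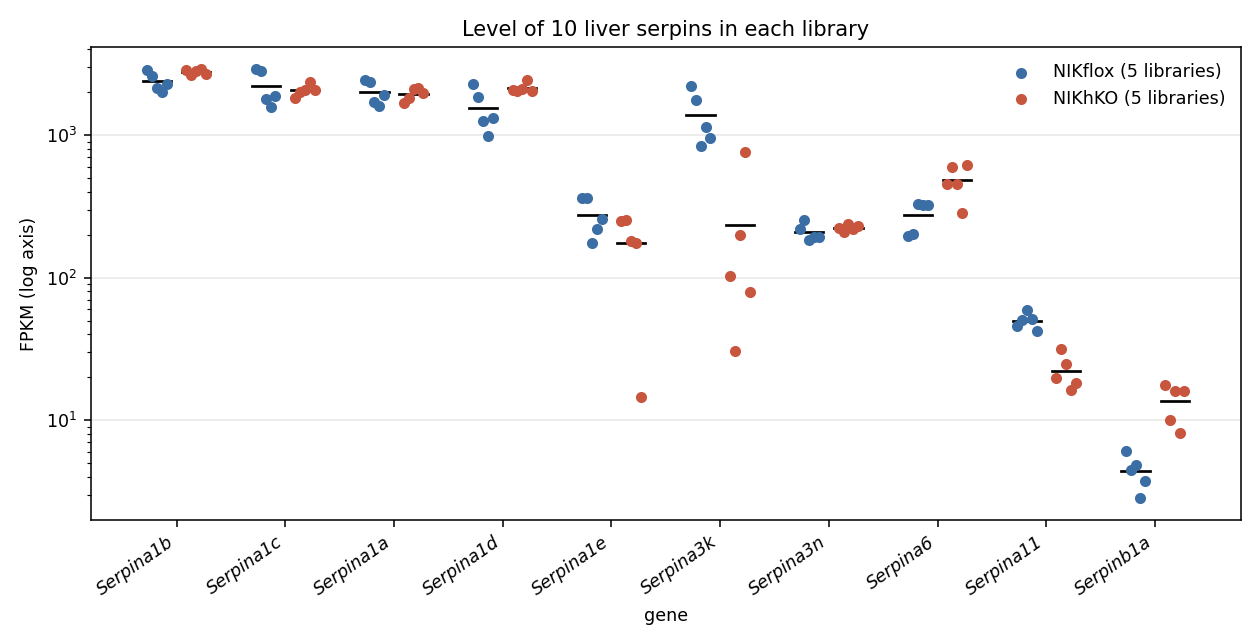
FPKM on a log axis of each of the 10 serpins, 1 point a library and a black bar at the mean of 5 libraries, NIKflox in blue and NIKhKO in red. The genotypes do not overlap for Serpina3k, Serpina11 and Serpinb1a, and the NIKhKO points of Serpina3k spread from 30.5 to 761.

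Among the 8 genes chosen by family, none was called between the genotypes, while 2 of them stood out by size: Serpina3k had a mean of 234 against 1379.6 FPKM, and Serpina6 483 against 275. Calls were made with edgeR's quasi-likelihood test where the p, adjusted by Benjamini-Hochberg over 12730 genes, was under 0.05. By that rule 0 of the 8 were called, beside 3 genes (0.0236%) of all those tested, 0.0157% higher and 0.00786% lower in NIKhKO livers. At an unadjusted p below 0.05 there were 4 of the 8, beside 9.99% of all genes. Serpina1b, Serpina1d and Serpina6 were positive in NIKhKO minus NIKflox, beside 4.85% of all genes, and Serpina3k was negative, beside 5.14%. DESeq2 called 1 of the 8, Serpina6, beside 1.63% of all genes, and limma on log2(FPKM + 1) called none of the 8 and no other gene. Only Serpina3k of the 8 had genotypes with no overlap in range, the NIKhKO livers below, beside 2.19% of all genes and 1.59% in that direction. The median log2 fold change of the 8 was 0.09 and that of all genes tested was -0.01.

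The summed level of the 5 antitrypsin genes, whose loops differ, did not separate the genotypes. The sum was 8393 ± 1910 FPKM (SD, n = 5) in NIKflox and 9116 ± 554 in NIKhKO livers. NIKflox livers ranged from 6397 to 10804, with NIKflox 1 and 2 highest, and enclosed the whole NIKhKO range of 8674 to 10011. The log2 ratio of the means was 0.12. The sum took 1.29% to 2.08% of all counts in NIKflox livers and 1.72% to 1.93% in NIKhKO livers.

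Serpina1d was at 2269, 1855, 1248, 992 and 1322 FPKM in NIKflox 1 to 5 and at 2065, 2048, 2111, 2442 and 2044 in NIKhKO 1 to 5. NIKhKO livers were closely grouped, apart from the higher NIKhKO 4, while NIKflox 1 lay among them and the other 4 NIKflox livers lay below. Its log2 fold change of 0.53 (SE 0.22, 95% interval 0.05 to 1.01) did not pass (adjusted p = 0.45, edgeR). Serpina1b, the highest of all 10, was at 2841, 2599, 2155, 2015 and 2284 against 2851, 2626, 2828, 2905 and 2703. Again NIKflox 1 fell within the NIKhKO range, and the other 4 NIKflox livers lay below it. For Serpina1b the log2 fold change was 0.28 (SE 0.13, interval 0.01 to 0.56, adjusted p = 0.49, edgeR).

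Serpina1a and Serpina1c showed no separation. Serpina1a was at 2419, 2370.2, 1709, 1597 and 1921 FPKM in NIKflox livers and 1681, 1832, 2112, 2130.4 and 1981 in NIKhKO livers. Serpina1c was at 2917, 2815, 1804, 1572 and 1891 against 1827, 2017, 2061, 2359 and 2081. For both genes NIKflox 1 and 2 lay above all other livers, and the remaining 8 were mixed. Their log2 fold changes were 0.02 (SE 0.16, interval -0.33 to 0.36) and -0.04 (SE 0.19, interval -0.46 to 0.39), each with an adjusted p of 0.98 in edgeR's test. The sign of each turned under some of the alternative settings.

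Serpina1e, the least abundant of the 5, was at 359, 361, 175, 221 and 257 FPKM in NIKflox livers and 249.5, 254, 182, 175 and 14.4 in NIKhKO livers. NIKhKO 5 stood far below the other 9 livers, at 1591 counts where the others held 16308 to 38571. This gave a log2 fold change of -0.61 (SE 0.54, interval -1.79 to 0.56, adjusted p = 0.78, edgeR). Without NIKhKO 5 it was -0.32, a move of the fold that rests on that liver.

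Set against their own sum, a pair of the paralogs differed in share without overlap. Serpina1d made up 21.0%, 18.5%, 17.6%, 15.5% and 17.2% of the summed FPKM in NIKflox 1 to 5 and 23.8%, 23.3%, 22.7%, 24.4% and 23.2% in NIKhKO 1 to 5. Every NIKhKO liver was above every NIKflox liver in that share. Serpina1c held 24.6% to 28.1% in NIKflox and 21.1% to 23.6% in NIKhKO livers, also without overlap and in the other direction. Serpina1a (22.4% to 25.0% against 19.4% to 22.7%), Serpina1b (26.0% to 31.5% against 29.0% to 32.9%) and Serpina1e (2.46% to 3.61% against 0.164% to 2.89%) overlapped. Shares sum to a whole and move against each other, and how the reads of near-identical stretches were divided was not tested, so these shares are a description.

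**Figure D2:**
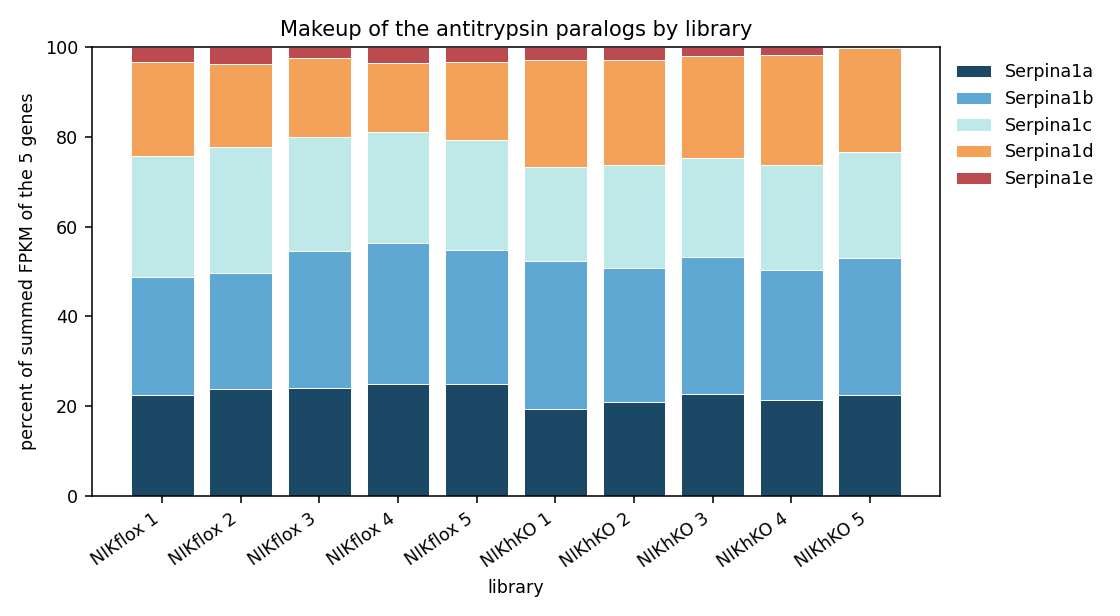
Share of each Serpina1 paralog in the summed FPKM of the 5 genes, as stacked bars in percent, 1 bar a library. The Serpina1d band is between 15.5% and 21.0% in NIKflox and between 22.7% and 24.4% in NIKhKO libraries, and the Serpina1e band nearly vanishes in NIKhKO 5 (0.164%).

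Serpina3k, known as kallikrein-binding protein and one of the mouse counterparts of human alpha-1-antichymotrypsin, had the largest difference of the 8. It was at 2201, 1752, 839.8, 1148 and 957 FPKM in NIKflox 1 to 5. In NIKhKO 1 to 5 it was at 102, 30.5, 199, 761 and 78.9. All NIKhKO livers lay below all NIKflox livers, with NIKhKO 4 close under the lowest of them, and the highest and lowest NIKhKO livers were 25.0-fold apart. The log2 fold change was -2.49 (SE 0.75, interval -4.14 to -0.85) with an adjusted p of 0.29 in edgeR's test, so it was not called. It was larger in size than that of all but 31 of the 12730 genes (0.244%). Without NIKhKO 4 it was -3.67 with an adjusted p of 0.042, and over all alternatives the adjusted p ran from 0.042 to 0.55.

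Serpina3m, the near copy that overlaps Serpina3k, had nearly equal means in the same libraries. It was at 299 ± 22.3 FPKM (SD, n = 5) in NIKflox and 287 ± 27.4 in NIKhKO livers, and NIKhKO 2, the liver lowest in Serpina3k, had 291 FPKM of it. The 95% interval of its log2 fold change was -0.22 to 0.21. Summed over both genes, the level was 1117 to 2524 FPKM in NIKflox and 322 to 1042 in NIKhKO livers, again without overlap. The difference of Serpina3k was thus not matched by an opposite one of Serpina3m.

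Serpina3n, an acute phase serpin that inhibits granzyme B and cathepsin G, showed little difference. Its FPKM values were 221, 252, 183, 192 and 194 in NIKflox livers and 224, 209.8, 236, 218 and 232 in NIKhKO livers. The NIKhKO range lay inside the NIKflox range. Its log2 fold change was 0.17 (SE 0.12, interval -0.09 to 0.42, adjusted p = 0.70, edgeR), an interval that does not reach a doubling in either direction.

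Serpina6 encodes corticosteroid-binding globulin, which carries glucocorticoids in blood and releases them when its loop is cut. It was at 197, 202, 328, 325 and 321 FPKM in NIKflox 1 to 5 and at 457, 597, 456, 285 and 621 in NIKhKO 1 to 5. Of the NIKhKO livers, 4 lay above all NIKflox livers, and NIKhKO 4 lay among the NIKflox livers. Between the genotypes the log2 fold change was 0.88 (SE 0.21, interval 0.41 to 1.35) with an adjusted p of 0.23 in edgeR's test. DESeq2 gave 0.89 with an adjusted p of 0.0090, and over all alternatives the adjusted p ran from 0.0090 to 0.49. The liver that fell among the controls was thus the one that had the highest Serpina3k of its genotype. Map3k14, a gene below the level set for testing, was at 0.389 FPKM in NIKhKO 4. Why NIKhKO 4 lay among the controls for Serpina6 was not tested.

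Serpina3k and Serpina6 ran in opposite directions from liver to liver. NIKflox 1 and 2 had the highest Serpina3k of all livers and the lowest Serpina6, and NIKhKO 2 and 5 had the lowest Serpina3k and the highest Serpina6. After each genotype's mean was subtracted from log2(FPKM + 1), Pearson's r was -0.87 over the 10 livers and Spearman's rho was -0.94. The permutation p within genotype (two-sided, 100000 resamples) was 0.00195 for r and 0.00093 for rho, and adjusted over all 45 pairs of the 10 genes it was 0.0125 and 0.0139. Without the 2 livers farthest from the median of Serpina3k, r was -0.86. All 45 pairs were examined after earlier values had been seen.

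**Figure D3:**
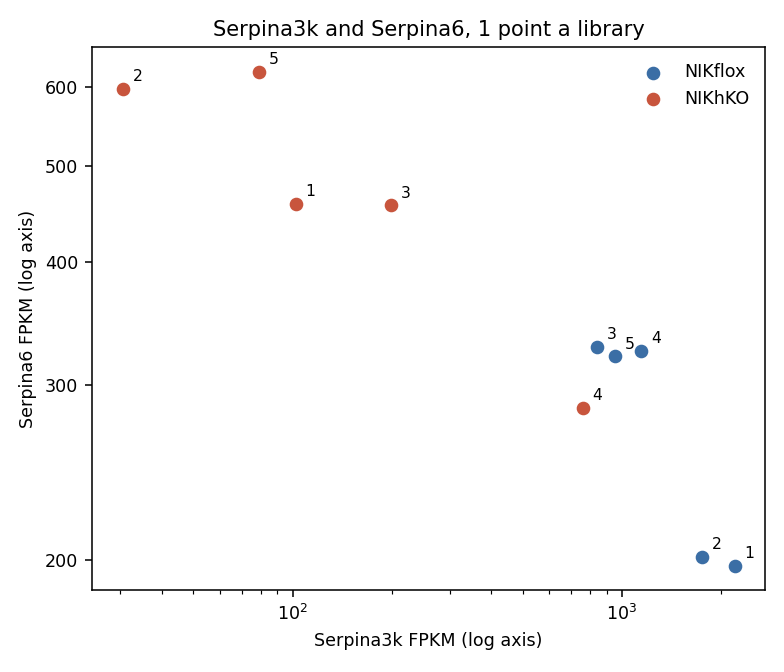
Serpina6 against Serpina3k in FPKM, both on log axes, 1 point a library numbered as in the labels, NIKflox in blue and NIKhKO in red. The livers run from NIKhKO 2 and 5 at the upper left to NIKflox 1 and 2 at the lower right, with NIKhKO 4 beside NIKflox 3, 4 and 5.

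Of the 45 pairs, 10 passed an adjusted p of 0.05 by Pearson's r and 5 by both r and rho. Besides Serpina3k with Serpina6, these 5 were Serpina1a with Serpina1c (r = 0.95), Serpina1b with Serpina1d (r = 0.97), Serpina1b with Serpina6 (r = -0.77) and Serpina1d with Serpina6 (r = -0.75). Their adjusted permutation p was 0.0045, 0.0056, 0.0078 and 0.0078 for r and 0.0099, 0.027, 0.027 and 0.0099 for rho. Without the 2 livers farthest from the median, r was 0.91, 0.91, -0.82 and -0.83. The paralog pairs share stretches of sequence, so part of their likeness can come from shared reads, which was not tested. Livers with more Serpina1b and Serpina1d RNA thus had less Serpina6 RNA once the genotype means were removed.

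Serpina3k with the summed Serpina1 genes was 1 of 7 relations set out for testing. It had r = 0.49 (permutation p = 0.0046, adjusted over the 7 p = 0.032) and rho = 0.58 (p = 0.038, adjusted p = 0.18). Without the 2 farthest livers r was 0.73 over 8 livers and no longer passed (adjusted permutation p = 0.27), so the call rests on the number of livers kept. None of the other 6 relations passed. For Serpina3n with the mean level of the acute phase genes r was 0.44 and rho 0.66, with adjusted permutation p of 0.29 and 0.18. For Serpinb1a with the neutrophil markers r was 0.45 and rho 0.54, with adjusted permutation p of 0.29 and 0.21.

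Serpina11 belongs to the same clade as antitrypsin and lies next to the Serpina1 genes, and less is known of its protein. Its level in NIKflox 1 to 5 was 46.0, 50.3, 59.6, 51.0 and 41.9 FPKM. In NIKhKO 1 to 5 it was 19.8, 31.4, 24.8, 16.3 and 18.3. The gene was chosen for this difference: the mean was 49.8 ± 6.59 (SD, n = 5) against 22.1 ± 6.07, a log2 fold change of -1.11 (SE 0.16), and the NIKhKO range lies wholly below, as in 1.59% of all genes. Its neighbour on the same strand, Serpina1e, and the Serpina1 genes beyond it had overlapping ranges. Leaving out single livers moved the log2 fold change between -1.23 and -1.02.

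No relation of Serpina11 with the other members passed within genotypes. Its r with the summed Serpina1 genes was -0.25 and its rho -0.24, with adjusted permutation p of 0.41 and 0.57. With Serpina6, r was 0.44 and rho 0.38, with adjusted permutation p of 0.36 and 0.48. With Serpinb1a, the other gene chosen for its change, r was 0.02 and rho -0.0061, with adjusted permutation p of 0.97 and 1.0. Over all 10 livers, the genes most like Serpina11 among 10566 searched were Map3k3 (r = 0.95), Rps15a (0.95), Mapk15 (0.92), AI597479 (0.90) and Pbx2 (0.90). After the genotype means were subtracted these were 0.87, 0.69, 0.65, 0.47 and 0.71, as a description over 10 points that share library depth.

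Serpinb1a is an intracellular serpin, abundant in neutrophils, that inhibits elastase, cathepsin G and proteinase 3. In NIKflox 1 to 5 it was at 6.03, 4.51, 4.82, 2.84 and 3.75 FPKM. In NIKhKO 1 to 5 it was at 17.7, 10.1, 16.0, 8.08 and 16.0. Chosen for this difference, it had means of 4.39 ± 1.19 (SD, n = 5) and 13.6 ± 4.23, a log2 fold change of 1.69 (SE 0.27), with the NIKhKO range wholly above, as in 0.605% of all genes. NIKhKO 4 was the NIKhKO liver nearest to the NIKflox livers for Serpinb1a. That did not hold for all the genes. For Serpina11 it was the farthest from them, at 16.3 FPKM, and for Serpina1b and Serpina1d it was the highest NIKhKO liver, at 2905 and 2442. Single livers left out moved the log2 fold change between 1.56 and 1.85.

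Neutrophil RNA was scarce in these livers. The 13 neutrophil markers summed to 2.77 to 8.84 FPKM in NIKflox and 1.93 to 5.24 in NIKhKO livers, with Camp and Mpo at a count of 0 in all 10. Within NIKhKO livers the highest sum was in NIKhKO 1 and the lowest in NIKhKO 4, which also had the most and the least Serpinb1a. NIKflox livers did not share that order. Their highest sum was in NIKflox 5, with Serpinb1a at 3.75 FPKM, and their lowest in NIKflox 3, with 4.82. The mean sum was 5.30 FPKM in NIKflox and 3.50 in NIKhKO livers, while mean Serpinb1a was 4.39 and 13.6. The part of neutrophils in the values of Serpinb1a was not tested. Of its target proteases, Ctsg, the gene of cathepsin G, was at a count of 0 in every library, Elane was at 0 in 8 of 10 and Prtn3 in 4 of 10, with no value above 0.263 FPKM. B cell markers summed to 3.60 to 6.58 FPKM in NIKflox and 5.31 to 14.4 in NIKhKO livers, and their part was not tested either. In RNA from whole liver, fewer cells of a type and less RNA per cell cannot be told apart.

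Likeness to Serpinb1a over the 10 livers includes the genotype difference for which it was chosen, and r within genotype is therefore given beside it. The genes most like it were Maob, a monoamine oxidase (r = 0.94), Car3, a carbonic anhydrase (0.93), Slc22a29, an organic anion transporter (0.91), Cyp2b13, a cytochrome P450 (0.91), and Sult2a3, a sulfotransferase (0.91). After subtraction of the genotype means r was lower, at 0.75, 0.76, 0.59, 0.52 and 0.50. These 5 genes too were picked by r over all livers, so the values are a description. Cyp2b13, for example, had a mean of 163 ± 34.1 FPKM (SD, n = 5) in NIKflox and 351 ± 60.2 in NIKhKO livers, and Sult2a3 33.0 ± 5.65 against 124 ± 40.6.

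Among the other serpins of the liver no gene was called. Of the 60 rows beyond the 10 genes, 18 passed the level filter, and edgeR called 0 of them, with 5 at an unadjusted p below 0.05 (9.99% of all genes) and 0 called by DESeq2 or limma. They split evenly, 9 positive and 9 negative, and their median log2 fold change was 0.0052. Clotting and complement inhibitors were abundant among them. Antithrombin (Serpinc1), which inhibits thrombin, was at 234 ± 10.5 FPKM (SD, n = 5) in NIKflox and 269 ± 21.4 in NIKhKO livers, with a log2 fold change of 0.26 (SE 0.08, adjusted p = 0.33, edgeR). Heparin cofactor II (Serpind1) was at 234 against 247, alpha-2-antiplasmin (Serpinf2) at 332 against 333, and the C1 inhibitor (Serping1) at 298 against 288.

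A gene and a pseudogene near Serpina11 had the smallest p of the remaining serpins, both at low levels. Serpina12, which encodes vaspin, was at 1.68, 0.550, 0.766, 0.300 and 0.728 FPKM in NIKflox livers and 0.413, 0.222, 0.284, 0.448 and 0.170 in NIKhKO livers, with overlap and an adjusted p of 0.35 in edgeR's test. Its log2 fold change was -1.34, and -0.85 without NIKflox 1. The pseudogene Serpina4-ps1 was at 4.49 in NIKflox 2 and 1.15 in NIKflox 1, and at 0.124 or less in the other 8 livers (adjusted p = 0.29, edgeR). Intracellular serpins of clade B other than Serpinb1a also overlapped. Serpinb8 differed most of those tested, at 0.899 against 1.34 FPKM (log2 fold change 0.63, adjusted p = 0.49, edgeR). Serpinb9, an inhibitor of granzyme B, was at 2.42 against 2.90 FPKM and Serpinb6a at 2.47 against 2.17.

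**Figure D4:**
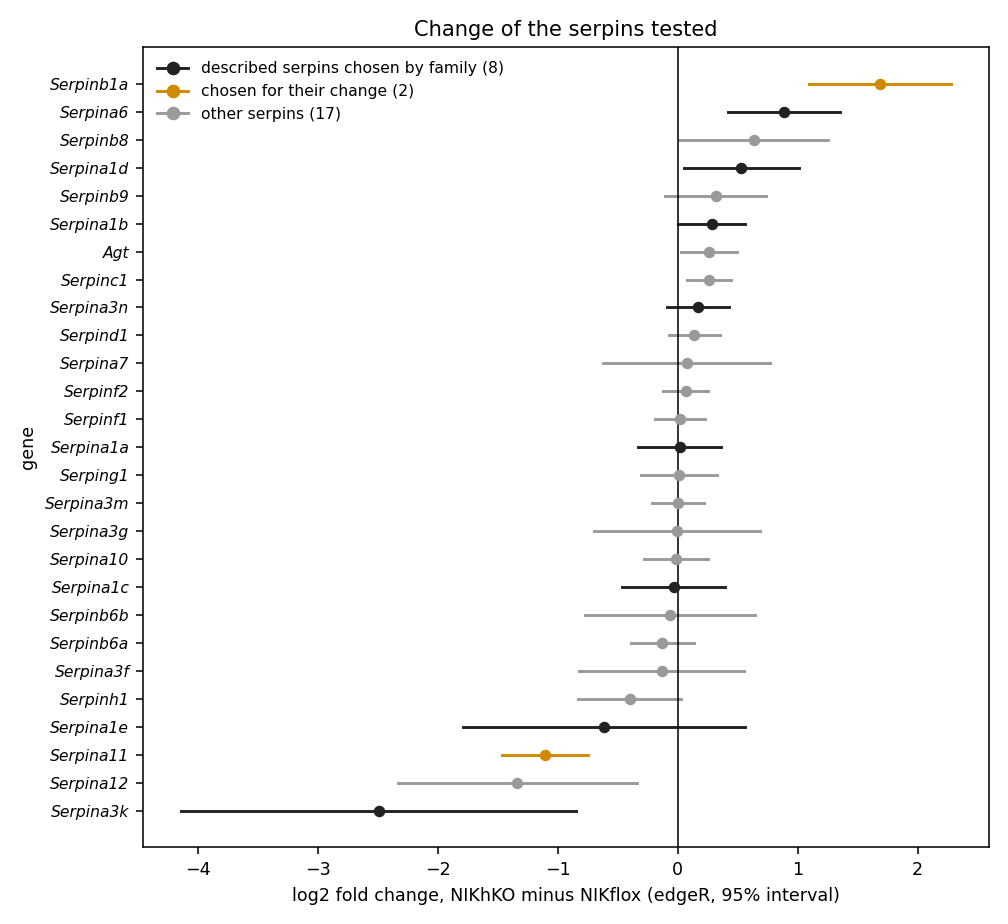
Log2 fold change of the serpins tested, NIKhKO minus NIKflox, with edgeR's 95% interval, 1 row a gene; Serpina4-ps1, at a log2 fold change of -5.98, is left out for scale. Serpina3k has the widest interval, -4.14 to -0.85, and most other serpins lie close to 0. Serpina11 and Serpinb1a were chosen for this difference, so their intervals are a description and no test.

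Along the chromosome, the cluster holds 28 Serpina genes and pseudogenes within 799.5 kb, of which 15 passed the level filter. Of these, 5 had a positive and 10 a negative log2 fold change, beside 51.8% negative among all genes. The 10 include Serpina11, chosen for its change. They also include Serpina1c, Serpina10, Serpina3g and Serpina3m, with log2 fold changes from -0.035 to -0.00087. Some genes of the cluster were silent. Serpina1f between Serpina6 and Serpina1b, and Serpina5, which encodes the protein C inhibitor, had a count of 0 in all livers, and Serpina3h, Serpina3i and Serpina3j before Serpina3m were below 0.1 FPKM on average.

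**Figure D5:**
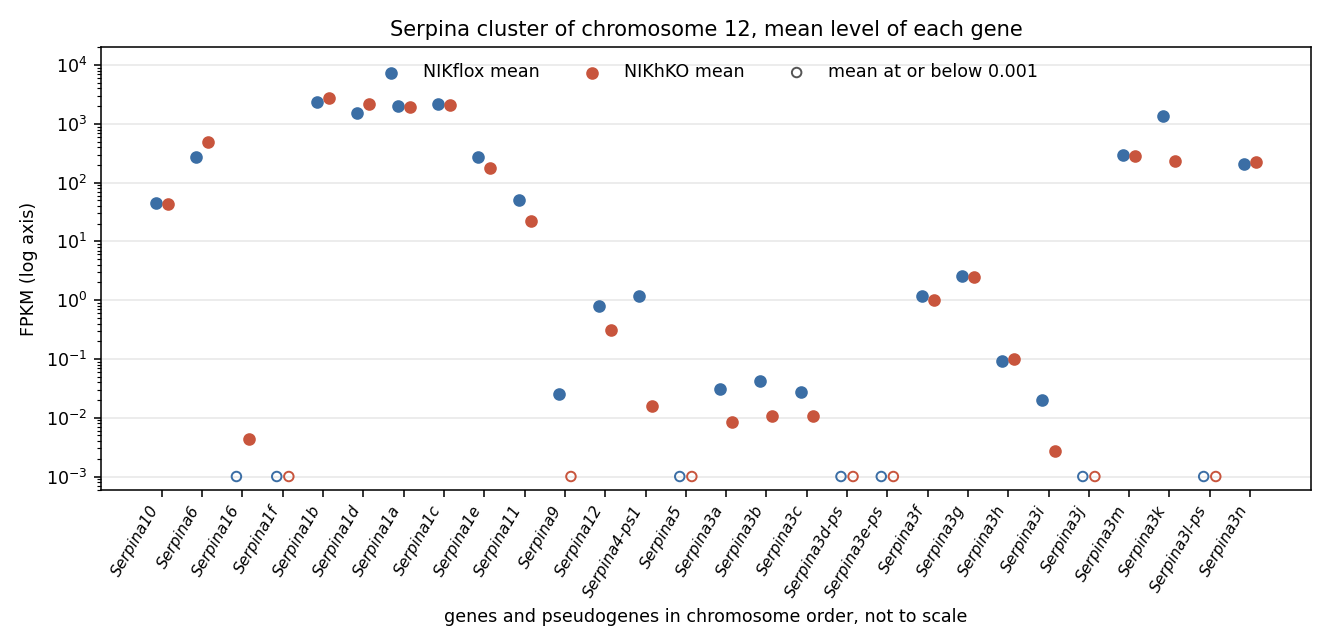
Mean FPKM on a log axis of the 28 Serpina genes and pseudogenes of chromosome 12 in their order on the chromosome, NIKflox in blue and NIKhKO in red, with open circles where the mean is at or below the bottom value shown. Serpina3k is at 1379.6 (blue) and 234 (red), and Serpina3m beside it at 299 and 287.

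The partners of serpins gave no called gene either. The 6 lists of partner and regulator genes were chosen with results of these data known, and edgeR called 0 of their 84 tested genes outside the 10. At an unadjusted p below 0.05 there were 20 (8 positive, 12 negative), beside 9.99% of all genes. The median of the 84 was -0.06 on the log2 scale, beside -0.01 for all genes, and 50 of them were negative. DESeq2 called 8 of the 84, beside 1.63% of all genes, and limma 0. Ranges did not overlap for 7 of the 84, beside 2.19% of all genes.

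Proteases that serpins inhibit were near even in direction. Of 19 tested, 12 were positive and 7 negative (median log2 fold change 0.05), and F11, the gene of clotting factor XI, alone had an unadjusted p below 0.05. F11 was at 16.4 ± 8.02 FPKM (SD, n = 5) in NIKflox and 8.79 ± 2.55 in NIKhKO livers (log2 fold change -0.86, SE 0.36, adjusted p = 0.46, edgeR). C1ra and Masp2, proteases of the complement pathways, were at 86.2 against 73.3 and 48.6 against 49.8 FPKM.

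Genes that fold, export or dispose of antitrypsin in the endoplasmic reticulum held none that was called. Of 16 tested, 13 were negative and 3 positive, beside 51.8% negative among all genes, and the median log2 fold change was -0.15 beside -0.01 for all genes. Uggt1, the glucosyltransferase that senses misfolded glycoproteins, was at 4.13, 4.56, 3.79, 6.12 and 3.80 FPKM in NIKflox livers and 3.64, 3.02, 3.04, 3.30 and 2.76 in NIKhKO livers, without overlap. Canx, which encodes the chaperone calnexin, was at 55.8 ± 7.18 against 44.7 ± 0.693 (SD, n = 5), also without overlap, beside 2.19% of all genes. Hspa5, the chaperone BiP, was at 154 ± 55.7 against 89.1 ± 28.3 and overlapped. The log2 fold changes were -0.44, -0.26 and -0.71, with adjusted p of 0.29, 0.37 and 0.42 in edgeR's test. Without NIKflox 2 and 4, the livers with heart muscle RNA, they were -0.26, -0.16 and -0.35.

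Of 17 liver transcription factors and acute phase signalling genes, edgeR called none, and 13 were negative, beside 51.8% of all genes, with a median of -0.17. The smallest p belonged to Socs3, a feedback inhibitor of cytokine signalling, at 2.64 ± 0.828 against 1.46 ± 0.329 FPKM (SD, n = 5). Cux2, a transcription factor, was at 2.99 ± 0.971 against 1.46 ± 0.595, and Il1r1, the interleukin-1 receptor, at 2.56 ± 1.10 against 1.52 ± 0.483. Their adjusted p was 0.29, 0.29 and 0.47 in edgeR's test, with Cux2 called by DESeq2 (adjusted p = 0.042, range over alternatives 0.042 to 0.55). The log2 fold change of Il1r1 was -0.68, and it was -0.37 without NIKflox 2 and -0.34 without NIKflox 2 and 4.

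Acute phase genes held a few large differences among genes with small ones. Of 20 tested, 9 were positive and 11 negative, with a median of -0.0094. Of these, edgeR called none and DESeq2 called 4, beside 1.63% of all genes. The 4 were Orm3, Saa2, Saa4 and Saa1, the last named after its values were seen. Orm3, an orosomucoid gene, was at 2.84, 1.84, 7.01, 2.52 and 2.79 FPKM in NIKflox livers and 17.7, 12.3, 9.82, 8.34 and 11.3 in NIKhKO livers, without overlap. Its log2 fold change was 1.87 (SE 0.34, adjusted p = 0.13, edgeR), and without NIKflox 3 it was 2.31 and called (adjusted p = 0.012). Over its alternatives the adjusted p of Orm3 ran from 1.2e-05, with DESeq2, to 0.36. Saa2, a serum amyloid A gene, was at 2.56, 1.70, 0.583, 2.36 and 1.58 against 7.13, 9.88, 8.18, 2.06 and 12.5. For Saa2, NIKhKO 4 lay among the NIKflox livers and the other 4 above them. The log2 fold change of Saa2 was 2.24 and that of Saa4, at 72.8 ± 11.1 against 108 ± 20.0 FPKM (SD, n = 5), was 0.64, both with an adjusted p of 0.20 in edgeR's test. Without NIKhKO 4 both were called (2.48 and 0.74, adjusted p = 0.037 each). Over all alternatives the adjusted p ran from 5.6e-05 to 0.48 for Saa2 and from 0.0036 to 0.48 for Saa4, with the lowest from DESeq2.

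Corticosteroid genes are of interest beside Serpina6 because its protein carries these hormones. Of 8 tested, 4 were positive and 4 negative, and edgeR called none. Fkbp5, a glucocorticoid receptor target, was at 4.62, 4.11, 3.69, 3.17 and 3.49 FPKM in NIKflox livers and 2.35, 2.20, 2.38, 2.51 and 2.11 in NIKhKO livers. Akr1d1, a steroid 5-beta-reductase, was at 72.2, 52.1, 76.3, 63.7 and 71.0 against 89.7, 88.2, 112, 93.5 and 94.1. Srd5a1, a steroid 5-alpha-reductase, was at 12.3 ± 1.74 against 8.55 ± 1.298 (SD, n = 5). All 3 were without overlap between genotypes, NIKhKO 4 included, with Akr1d1 above and the other 2 below, beside 2.19% of all genes. They were named for the smallest p of the 8, a choice that favours genes that separate. The log2 fold changes were -0.67, 0.58 and -0.46, with adjusted p of 0.17, 0.23 and 0.26 in edgeR's test. DESeq2 called Fkbp5 and Akr1d1, beside 1.63% of all genes. The receptor gene Nr3c1 itself had overlapping ranges, 5.32 to 6.95 in NIKflox and 6.04 to 7.26 FPKM in NIKhKO livers.

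Of receptors that clear serpin complexes from blood, 5 were tested, 3 positive and 2 negative. Vldlr was at 1.46 ± 0.690 FPKM (SD, n = 5) in NIKflox and 3.01 ± 0.648 in NIKhKO livers, a log2 fold change of 1.12 (SE 0.30, adjusted p = 0.26, edgeR), and DESeq2 called it (adjusted p = 0.018, range over alternatives 0.018 to 0.49). Asgr2, a subunit of the asialoglycoprotein receptor, was at 116 against 123 FPKM.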

How the data were processed

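The members and gene lists were chosen with earlier results of these data known. Estimated counts and FPKM values per gene were deposited by the authors in 1 table for all 10 libraries. The deposited expected counts are whole numbers and not normalized, and their low values pile up at 4 (on average 907 genes a library, against 330.5 at 3), so what 1 count is worth in read pairs is unclear. Tools listed in the submitters' processing notes, with no role or order, are StringTie 1.3.4d, HISAT2 2.0.4, edgeR and cutadapt 1.9; the build listed is the human hg38. Of the 55401 gene identifiers, 55141 were found in mouse GENCODE M21 (GRCm38), and 8 of the 10 serpins had the same start and end there (not Serpina1a and Serpina1b). Genes at a count of 0 are listed at 1e-04 FPKM.

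Genes with a mean of at least 0.5 FPKM (12730) were tested with edgeR 4.0.16 (R 4.3.3; quasi-likelihood test, TMM, two-sided, Benjamini-Hochberg). Intervals are at 95%. The alternatives were RLE scaling, DESeq2 1.42.0, limma 3.58.1 on log2(FPKM + 1) and log2(FPKM + 0.1), no filter, filterByExpr, the replicate number as a block, each library left out, NIKflox 2 and 4 left out together, and the paralogs summed. Within-genotype permutation tests used 100000 resamples. The test was checked on simulated counts, with 50 genes set to differ at each fold. It recovered 22% of them at 1.5-fold, 64% at 2-fold, 98% at 4-fold and 96% at 8-fold, with 7 false calls. A gene that was not called can therefore still differ, at the smaller folds above all. Named beyond the 10 serpins were genes called, otherwise the 3 with the smallest p in each list, textbook serpins, cluster neighbours and the 5 genes most like Serpina11 and Serpinb1a. Nr3c1, Serpinb8, Serpinb9, Serpinb6a and the proteases at 0 were named after their values were seen. The order of levels without NIKhKO 4 was added after seeing the data. No 2 libraries held identical values. A gene that the rule names is not reported here.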

Additional observations from a re-analysis of the deposited data

Results flagged for a closer look

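In a check of each genotype's 5 livers for a single liver far from the rest, run on the 31 genes named by rule (62 groups), 9 groups were marked, and chance alone marks about 1 in 20. Among the 10 serpins these were both in NIKhKO 4. Serpina1d was at 2442 FPKM in NIKhKO 4, with the gap to the next liver at 0.833 of the range, and Serpina3k was at 761 FPKM there, with a gap of 0.769 of the range.

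Among the other genes, Masp2 was low in NIKflox 4 (44.8 FPKM) and Canx low in NIKhKO 1 (43.5). Il1r1 was high in NIKflox 2 (4.49), Orm3 high in NIKflox 3 (7.01) and Akr1d1 high in NIKhKO 3 (112). Serpina4-ps1 was high in NIKflox 2 (4.49) and was above 0 among NIKhKO livers only in NIKhKO 5 (0.0774).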

How the results depend on the processing

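Serpina3k, Serpina3n and Serpina6 kept their direction under all 19 alternatives, and Serpina1b, Serpina1d and Serpina1e under all 18 that apply to them. Serpina11 and Serpinb1a kept theirs under all 19, but both were chosen for their change in these same livers, so this adds no support. Of the 8 serpins tested, 0 were called, against 1 with DESeq2 (Serpina6) and 0 to 1 with single livers left out (Serpina3k without NIKhKO 4). The same counts, 0, 1 and 0 to 1, hold for the 26 serpins tested without Serpina11 and Serpinb1a. Of the partner genes 0 were called, against 8 with DESeq2 and 0 to 3 with single livers left out. Over all genes edgeR called 3, DESeq2 207 and edgeR without NIKhKO 4 24. The cause was not tested.

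The log2 fold change of Serpina1a turned negative with limma (-0.026 with either pseudocount), without NIKflox 2 and 4 (-0.0012) and without single livers (range -0.062 to 0.11). That of Serpina1c turned to 0.016 with the replicate block and ran from -0.14 to 0.11 with single livers left out. The replicate block called 0 of the 8. Livers with the same number did not deviate together (correlations from -0.25 to 0.05, none closest to its own number). Whether they were paired by litter, cage or day is not stated, and these correlations cannot decide it.

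With single livers left out, r of Serpina11 with Serpinb1a ran from -0.46 to 0.41, and r of Serpina3k with the summed Serpina1 genes from 0.46 to 0.58, with its adjusted p above 0.05 in 8 of those 10. Without the 2 farthest livers the latter was 0.73 and no longer passed, and r of Serpina11 with Serpina6 turned to -0.040.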
